A study of Mus musculus with 4 samples.

Results

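Genes of the early response to antigen receptor signals were compared between mouse Tc9 and Tc1 cells: the zinc finger transcription factor genes Egr1, Egr2 and Egr3, the orphan nuclear receptor genes Nr4a1, Nr4a2 and Nr4a3, and Nab2, which encodes a corepressor of Egr proteins. These genes were chosen by gene symbol and are 7 of the 19505 named genes on the array. Each was represented by its probe set with the highest mean over the 4 arrays. RNA from 2 samples labelled Tc9 and 2 labelled Tc1 was hybridised to 1 Affymetrix array each. Tc9 cells were kept under a Tc9 cytokine condition and Tc1 cells under a Tc1 cytokine condition. By convention, Tc9 cells are CD8 T cells marked by interleukin 9 production and Tc1 cells are CD8 T cells marked by interferon gamma. The sources used here do not give the genotype, strain or age of the mice, the cytokines, the culture times or whether cells were restimulated before RNA was taken. The question named by the study is how gene expression differs between the cell types.

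Egr and Nr4a genes are switched on within minutes of T cell receptor engagement, through the ERK kinases, which act on serum response factor (SRF) and its ETS partners, and through calcium signals, which act on calcineurin, NFAT and MEF2 proteins. Nab2 is itself induced by Egr proteins and restrains them. In CD8 T cells, Egr2, Egr3 and the Nr4a receptors are known for limiting effector responses, and Nr4a1 transcript is widely used as a reporter of receptor signal strength.

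The titles number the arrays 1 and 2 within each cell type, and nothing in the labels says that they come from separate cultures or animals. P-values therefore measure the spread between these samples, which may be technical. All 9 T cell and CD8 identity genes, including Cd8a, Cd8b1 and Cd3e, lay above the 95th percentile of the negative control probe sets, called background here, on all 4 arrays. Cd4 and the other 2 CD4 T cell markers lay below it on all 4. Of the markers of other cells, 1 of 6 B cell genes (Cd79b, on 1 Tc9 array), 0 of 9 myeloid, 0 of 4 NK cell and 0 of 9 mast cell and basophil genes exceeded it on any array. The median deposited intensity was 37.9 on the Tc9 and 37.1 on the Tc1 array numbered 1, and 57.1 on the Tc9 and 57.3 on the Tc1 array numbered 2. Values in the text are intensities after quantile normalization unless said otherwise, and background on that scale was between 153 and 182. Log2 differences are Tc9 minus Tc1 on the log2(value + 16) scale. In such bulk samples, fewer cells carrying a transcript and less transcript per cell cannot be told apart.

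None of the 7 genes passed the test between Tc9 and Tc1 cells (limma adjusted p under 0.05 over all genes), against 0.564% of all genes tested. All 7 were above background on all 4 arrays, while 11739 of the 19505 genes tested lay below it on all 4. Shares over all genes, here and below, therefore include many genes near background. Among the 7, the largest difference was that of Nr4a3, at 1.37-fold. For each of the 7, the 95% interval of the log2 difference lay between -1 and 1, inside a 2-fold difference either way. At an unadjusted p under 0.05 there was 1 gene, Nr4a3, lower in Tc9, against 5.28% of all genes in either direction. Both Tc9 arrays lay below both Tc1 arrays for 3 of the 7 genes (Nr4a3, Nab2 and Egr3), which 15.1% of all genes did, and above both for 0 of the 7, which 14.0% did.

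To show the sequence before the genes that are set side by side below, 250 bases upstream of a transcript start are printed for 4 of them (RefSeq, GRCm38.p6, each 5′ to 3′ on the gene's strand). Nr4a3 and Nab2 had the most negative differences, Egr2 the most positive and Nr4a1 the one nearest to zero. Promoter windows were matched for 5 of the 7 genes. Capitals mark matches, on either strand, to the CArG box, the site of SRF, to TGACG, the half-site of CREB and ATF factors, to TGCGTCA, a related form, or to GCGGGGGCG, an Egr site.
Nr4a3, chr4:48045055-48045304, plus strand: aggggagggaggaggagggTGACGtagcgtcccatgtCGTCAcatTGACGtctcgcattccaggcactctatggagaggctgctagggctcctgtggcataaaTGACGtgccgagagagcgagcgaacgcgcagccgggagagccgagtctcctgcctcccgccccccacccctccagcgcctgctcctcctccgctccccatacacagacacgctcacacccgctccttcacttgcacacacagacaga
Nab2, chr10:127666704-127666953, minus strand: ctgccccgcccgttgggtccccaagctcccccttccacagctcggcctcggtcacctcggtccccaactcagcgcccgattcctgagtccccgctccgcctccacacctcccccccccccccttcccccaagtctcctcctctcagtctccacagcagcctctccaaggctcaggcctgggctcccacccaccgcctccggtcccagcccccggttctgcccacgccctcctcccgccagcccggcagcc
Egr2, chr10:67537619-67537868, plus strand: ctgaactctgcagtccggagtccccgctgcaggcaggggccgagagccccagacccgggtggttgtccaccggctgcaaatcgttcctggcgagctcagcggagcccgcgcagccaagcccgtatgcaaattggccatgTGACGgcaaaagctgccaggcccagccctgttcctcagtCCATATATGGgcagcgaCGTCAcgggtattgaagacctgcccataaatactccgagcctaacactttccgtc
Nr4a1, chr15:101266596-101266845, plus strand: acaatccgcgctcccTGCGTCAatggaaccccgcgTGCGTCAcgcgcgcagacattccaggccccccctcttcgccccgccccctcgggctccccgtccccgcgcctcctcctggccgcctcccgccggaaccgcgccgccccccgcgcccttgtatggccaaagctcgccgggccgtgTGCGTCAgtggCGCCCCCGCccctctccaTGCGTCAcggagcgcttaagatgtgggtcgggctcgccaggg

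The Nr4a3 stretch held 4 matches to TGACG, the Nr4a1 stretch 4, the Nr4a2 stretch (not printed) 4 and this Egr2 stretch 2. At least 1 TGACG occurred in the same 250 bases of 17.8% of all 32851 promoter windows. That share counts windows with any match, and how often a window holds several was not counted. The motifs were picked with these promoters in view, and TGACG is also contained in TGACGTCA and in TGCGTCA. In Nr4a1 each of the 4 lay within a TGCGTCA, read on the other strand, and TGCGTCA occurred in 1.75% of windows. Egr2 has 5 windows, for different starts. The one printed is the first with a match both to the CArG box and to TGACG. Its CArG box began 72 bases before the start, and CArG boxes were in 1.47% of all windows. Nr4a1 held 1 GCGGGGGCG, found in 2.57% of windows. The full site TGACGTCA (1.55% of windows) and AAAGGTCA, the Nr4a site (1.34%), were in none of these stretches, and the Nab2 stretch held no match. A match is a description of letters, and binding was not measured.

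Egr1, the founding member of its family and an activator of early growth genes, had 1130 and 1515 in Tc9, against 1034 and 1277 in Tc1. The 2 groups overlapped. Its log2 difference was 0.18 ± 0.19 (SE, limma adjusted p = 1.00, 95% interval -0.25 to 0.62), and 0.13 and 0.24 within the arrays numbered 1 and 2.

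Egr2, whose protein takes part in T cell unresponsiveness and has the CArG box shown above near its start, had 2291 and 3067 in Tc9, against 1910 and 2479 in Tc1. Within each number the Tc9 array was the higher, by 0.26 and 0.31 on the log2 scale, while the Tc9 array numbered 1 lay below the Tc1 array numbered 2. The difference was 0.28 ± 0.19 (limma adjusted p = 1.00, interval -0.16 to 0.72).

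Egr3, a close partner of Egr2 in T cells, had 482 and 520 in Tc9, against 635 and 599 in Tc1. Both Tc9 arrays lay below both Tc1 arrays, in the direction opposite to Egr1 and Egr2. The difference was -0.29 ± 0.15 (limma adjusted p = 1.00, interval -0.65 to 0.06), and -0.39 and -0.20 within the numbers. Egr3 has 3 probe sets, each annotated to a different RefSeq transcript of the gene and each above background on all 4 arrays. The other two gave log2 differences of -0.44 and -0.08, so all 3 were lower in Tc9, by unequal sizes. The one with -0.44 had 175 and 244 in Tc9, against 218 and 376 in Tc1, and there the groups overlapped. It is the only one of the 3 whose name is not marked as unmapped, so the probe set used for Egr3 is an unmapped one.

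Nab2, the corepressor that Egr proteins induce and are held back by, had 858 and 1156 in Tc9, against 1172 and 1383 in Tc1. Every Tc9 value lay below every Tc1 value, although the Tc9 array numbered 2 came close to the Tc1 array numbered 1. The log2 difference was -0.35 ± 0.18 (limma adjusted p = 1.00, interval -0.78 to 0.08), and -0.44 and -0.26 within the numbers.

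Nr4a1, encoding Nur77, had 1630 and 1795 in Tc9, against 1498 and 1831 in Tc1. The Tc9 values lay between the Tc1 values. Its difference of 0.05 ± 0.15 (limma adjusted p = 1.00, interval -0.30 to 0.39) had opposite signs within the numbers, at 0.12 and -0.03.

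Nr4a2, encoding Nurr1, had 1318 and 1921 in Tc9, against 1507 and 1834 in Tc1. Here the Tc1 values lay between the Tc9 values. The difference was -0.06 ± 0.20 (limma adjusted p = 1.00, interval -0.54 to 0.41), again of opposite signs within the numbers (-0.19 and 0.07).

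Nr4a3, encoding NOR1, had 2774 and 3673 in Tc9, against 3931 and 4858 in Tc1. Both Tc9 arrays were lower than both Tc1 arrays. The means were 3224 ± 635 in Tc9 and 4395 ± 656 in Tc1 (SD, n = 2 each). The log2 difference was -0.45 ± 0.17 (limma adjusted p = 0.789, unadjusted p = 0.0328, interval -0.85 to -0.05), and -0.50 and -0.40 within the numbers.

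**Figure D1:**
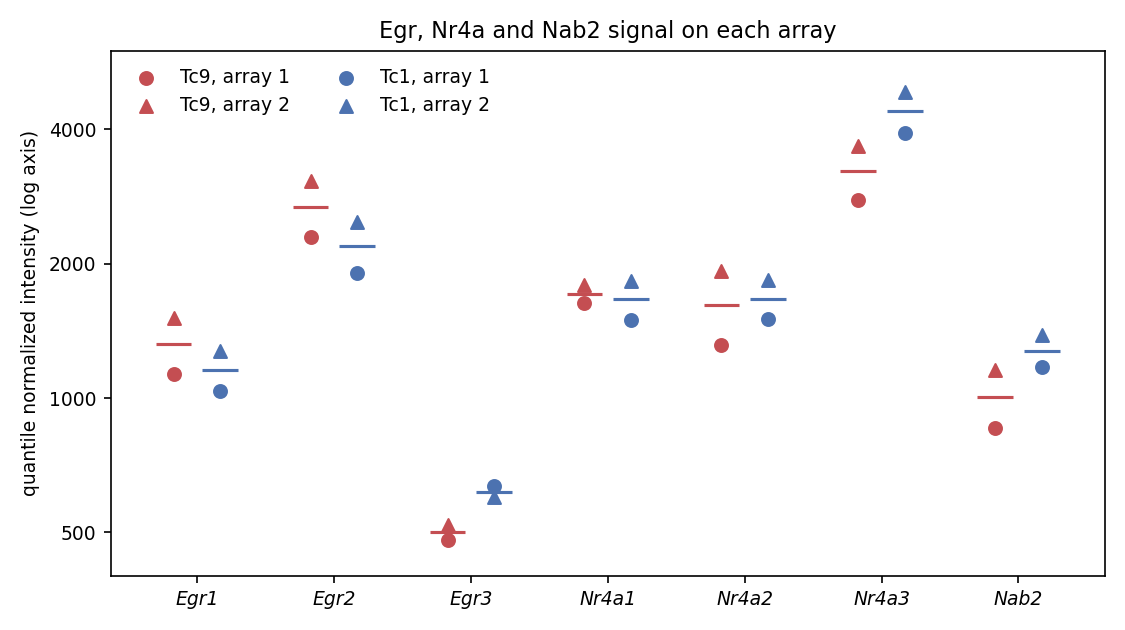
Quantile normalized intensity (log axis) of the 7 genes, with Tc9 arrays in red to the left and Tc1 arrays in blue to the right. Circles are arrays numbered 1, triangles arrays numbered 2 and bars the means of 2 arrays. For Nr4a3, Nab2 and Egr3 the red points lie below the blue ones, while the other 4 genes overlap.

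**Figure D2:**
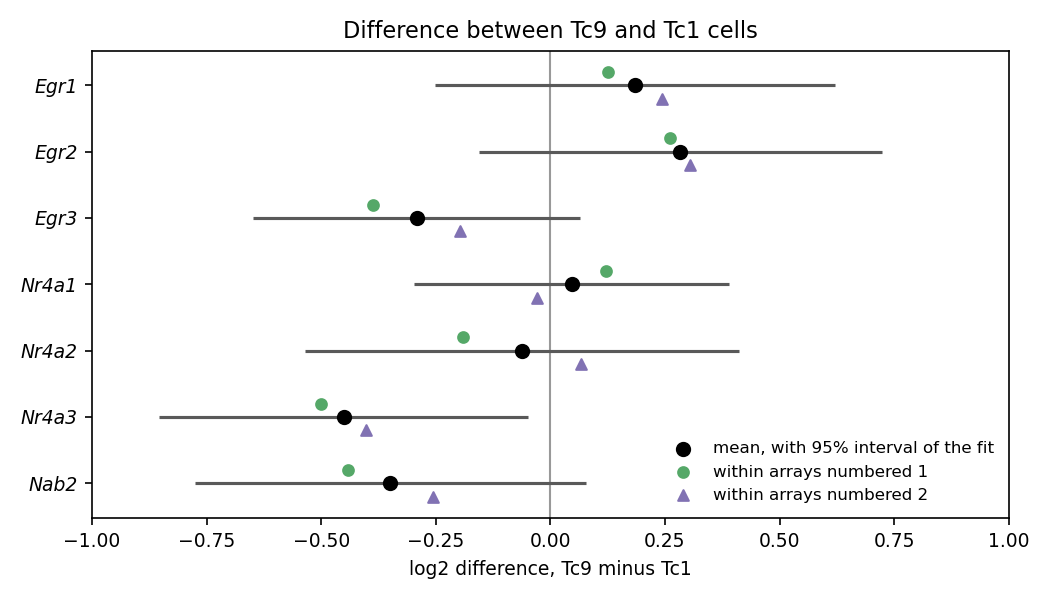
Log2 difference, Tc9 minus Tc1, of each gene. Black points are means with the 95% interval of the limma fit, green circles the difference within arrays numbered 1 and purple triangles that within arrays numbered 2. Nr4a3 lies farthest to the left at -0.45 and Egr2 farthest to the right at 0.28.

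The array number moved with the signal of these genes. Averaged over both cell types, all 7 were higher on the arrays numbered 2 than on those numbered 1, by 0.41 on the log2 scale for Nr4a2, 0.40 for Egr2, 0.36 for Egr1, 0.35 for Nr4a3, 0.33 for Nab2, 0.21 for Nr4a1 and 0.01 for Egr3. For Egr1, Egr2, Nr4a1 and Nr4a2 this difference was larger than that between the cell types. The 0.01 for Egr3 is that of the unmapped probe set used. The mapped probe set of Egr3 had 175 (Tc9) and 218 (Tc1) on the arrays numbered 1, against 244 and 376 on those numbered 2. The other unmapped one had 230 and 232, against 228 and 256. Over the 7325 genes above background on at least 2 arrays, the difference between numbers had a median of -0.0089. It exceeded 0.66 in size for the outer 5% of them. Deposited values were written with 10 digits (median) on the Tc1 array numbered 1 but with 7 on the Tc1 array numbered 2. Between these arrays the number coincides with a difference in how values were written. Whether the 2 numbers differ by culture or by processing cannot be told apart.

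**Figure D3:**
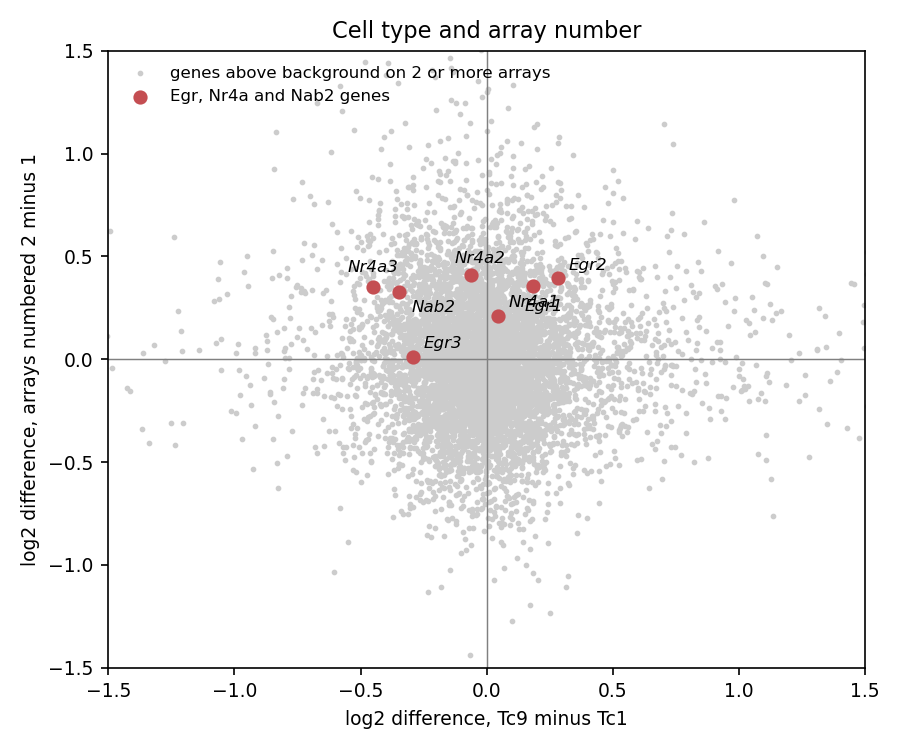
Log2 difference between cell types (horizontal, Tc9 minus Tc1) against the log2 difference between array numbers (vertical, 2 minus 1). Grey points are the 7325 genes above background on at least 2 arrays, of which 84 lie outside the axes. The 7 genes in red sit at or above zero on the vertical axis, from 0.01 for Egr3 to 0.41 for Nr4a2. Egr3 is shown by an unmapped probe set, and its mapped probe set differed more between the numbers.

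With the array number as a block in the fit, 4 of the 7 genes passed, against 13.7% of all genes. Unlike the 7, most of all genes tested lay below background on every array. Egr2 was higher in Tc9 (limma adjusted p = 7.24e-06), and Nr4a3 (2.90e-19), Nab2 (2.12e-05) and Egr3 (0.0128) were lower. The block left 1 residual degree of freedom, and the spread of each gene was then taken wholly from genes of like intensity. When the spread was not tied to intensity, 1 of the 7 passed, Nr4a3 (adjusted p = 0.0233), against 7.31% of all genes. Egr1, Nr4a1 and Nr4a2 did not pass with the block either (adjusted p = 0.0532, 0.773 and 0.658).

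Among the 21 pairs of the 7 genes, the profiles of Egr1 and Egr2 (Euclidean distance 0.11 on the log2 scale over the 4 arrays, each profile centred on its mean) and of Nr4a3 and Nab2 (0.11) were the nearest, and the next pair, Egr1 and Nr4a1, was at 0.24. Egr2 and Nr4a3 were farthest apart, at 0.74. Of the other genes above background on at least 2 arrays, those nearest to Nr4a3 were Cops7b and Ybx3 (0.052 and 0.053), and to Nab2 Eif2b3 and Tcof1 (0.029 and 0.038). Nearest to Egr1 were Dnajb12 and Gm6710 (0.021 each), to Egr2 Lgals9 and Hivep2 (0.032 and 0.037), and to Egr3 Ets2 and Zfp131 (0.027 and 0.029). For Nr4a1 they were Eif4g2 and Rc3h2 (0.026 each), and for Nr4a2 Donson and Tmed2 (0.032 each). With 4 arrays such likeness is a description only.

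Among the relatives and binding partners of these factors, no gene passed the test without the block. Of 7 measured (Egr4, Nab1, Wt1, Rxra, Rxrb, Rxrg and Ddx20), 0 passed limma in either direction, and 0 did so at an unadjusted p under 0.05. The shares of all genes were 0.564% and 5.28%. Nab1, the second Egr corepressor, had 398 and 379 in Tc9, against 400 and 300 in Tc1 (log2 difference 0.16). Ddx20, a helicase that binds Egr proteins, had 998 and 900 in Tc9, against 1185 and 1011 in Tc1 (-0.20, limma adjusted p = 1.00). The Ddx20 groups did not overlap, and with the block it passed (0.0412), the only one of the 7 to do so, against 13.7% of all genes. Rxrb, a partner chain of nuclear receptors, and Egr4 had differences of 0.06 and -0.02. Egr4 lay below background on both arrays numbered 2 (135 in Tc9 and 139 in Tc1). The other 3 of the 7 relatives and partners lay below background on all 4 arrays.

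Upstream of the family, Elk3 rose in Tc9. It encodes an ETS protein that binds next to SRF at CArG boxes, although no binding was measured here. Elk3 had 1419 and 1672 in Tc9, against 418 and 511 in Tc1. The groups were far apart, with a log2 difference of 1.70 ± 0.17, or 3.25-fold (limma adjusted p = 0.00728; 1.73 and 1.68 within the numbers). It was the only one of 31 measured upstream regulators past the threshold without the block, against 0.564% of all genes. With the block 8 were higher and 2 lower, against 1236 and 1438 of all 19505 genes. The median of the list was 0.05, against -0.0027 over all genes. Rasgrp1, which activates Ras below the T cell receptor, had 1300 and 2131 in Tc9, against 819 and 1209 in Tc1 (0.73, adjusted p = 0.746). Hdac7, a deacetylase that represses Nr4a1 in mouse thymocytes, differed by 0.51 and Ppp3ca, a catalytic chain of calcineurin, by -0.53 (adjusted p = 0.756 for both). With the block, Rasgrp1 (limma adjusted p = 5.28e-25), Hdac7 (7.34e-09) and Ppp3ca (0.000495) passed. Srf itself, named outside the rule for named genes, differed by -0.03. Elk3 lost its call with the values as deposited (adjusted p = 1.00), with median centring (0.0565) and without the intensity trend (0.0501).

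Of 36 immediate early and activation-induced genes, 1 rose and 3 fell, against 75 and 35 of all 19505 genes. The list median was -0.0047. With the block 10 were higher and 12 lower, against 1236 and 1438 of all genes. The list also holds Klf2 (named outside the rule for named genes), which is not induced by T cell activation. It was among the 10 higher with the block. Dusp4, a nuclear phosphatase that switches off MAP kinases, rose to 1031 and 1330 in Tc9, against 257 and 310 in Tc1, a log2 difference of 1.99 ± 0.19 (limma adjusted p = 0.00705). Ccl4, an inflammatory chemokine, fell to 719 and 788 in Tc9, against 1673 and 1856 in Tc1 (-1.21 ± 0.14, adjusted p = 0.0152). The related chemokine Ccl3 fell by 0.99 (adjusted p = 0.0417) and Klf6, a zinc finger factor, by 1.14 (adjusted p = 0.0216). All 4 lost their calls with the values as deposited (adjusted p = 1.00 for each). Ccl4 (0.0887 and 0.0713) and Klf6 (0.158 and 0.0645) also lost them with median centring and without the intensity trend, and Ccl3 with a pseudocount of 64 (0.0603) and without the trend (0.200).

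Of 23 measured genes reported to follow Egr2 and Egr3 in T cells, 1 fell and 0 rose, against 35 and 75 of all genes. The list median was 0.04. At an unadjusted p under 0.05, 7 were higher and 6 lower, against 574 higher and 456 lower of all 19505 genes. With the block 8 were higher and 6 lower, against 1236 and 1438 of all genes. In both counts, each direction included a gene below background on all 4 arrays, as 5 of the 23 were. Nrn1, encoding the membrane-anchored protein neuritin, had 140 and 124 in Tc9, both below background, against 533 and 697 in Tc1. The fall was at least 3.55-fold, set against background on the Tc9 arrays (limma adjusted p = 0.00734), and its call was lost with the values as deposited (1.00). The remaining named genes of the list did not pass without the block, and all 4 passed with it. The cell cycle inhibitor genes Cdkn1a (p21) and Cdkn1b (p27) had log2 differences of -0.80 (adjusted p = 0.0586, with the block 2.69e-31) and 0.62 (0.489, with the block 1.26e-08). Cdkn1a had 1062 and 1019 in Tc9, against 1738 and 1916 in Tc1. Ndrg1, a factor of T cell unresponsiveness, differed by -0.86 (0.229, with the block 3.03e-10) and Tnfsf10, the death ligand TRAIL, by 0.68 (0.283, with the block 4.16e-09).

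Of 17 measured genes reported to follow Nr4a factors, 0 passed limma, against 0.564% of all genes. At an unadjusted p under 0.05, 3 were higher and 1 lower, and with the block 8 were higher and 1 lower, read against the all-gene counts given for the Egr2 and Egr3 list. The median of the list was 0.31, with 14 positive and 3 negative differences, against 9622 positive and 9882 negative over all genes. However, 7 of the 17 lay below background on all 4 arrays, and all 7 were among the positive ones. Of the other 10 genes, 7 had positive and 3 negative differences. Their median was 0.32, against -0.014 over all genes above background on at least 1 array. The 8 higher with the block included some of the genes below background. Pdcd1, encoding the inhibitory receptor PD-1, had 1856 and 1655 in Tc9, against 1229 and 1146 in Tc1 (log2 difference 0.56 ± 0.13, limma adjusted p = 0.236). Ikzf4, the transcription factor Eos, had 496 and 347 in Tc9, against 221 and 161 in Tc1 (1.07, adjusted p = 0.216). The 161, on the Tc1 array numbered 2, lay below that array's background of 171. Bcl2l11, the death protein Bim, differed by 0.54 (0.356). Ctla4, another inhibitory receptor, differed by -0.53 (0.941). With the block, Pdcd1 (limma adjusted p = 1.25e-15), Ikzf4 (1.68e-18), Bcl2l11 (1.48e-08) and Ctla4 (0.000115) passed.

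**Figure D4:**
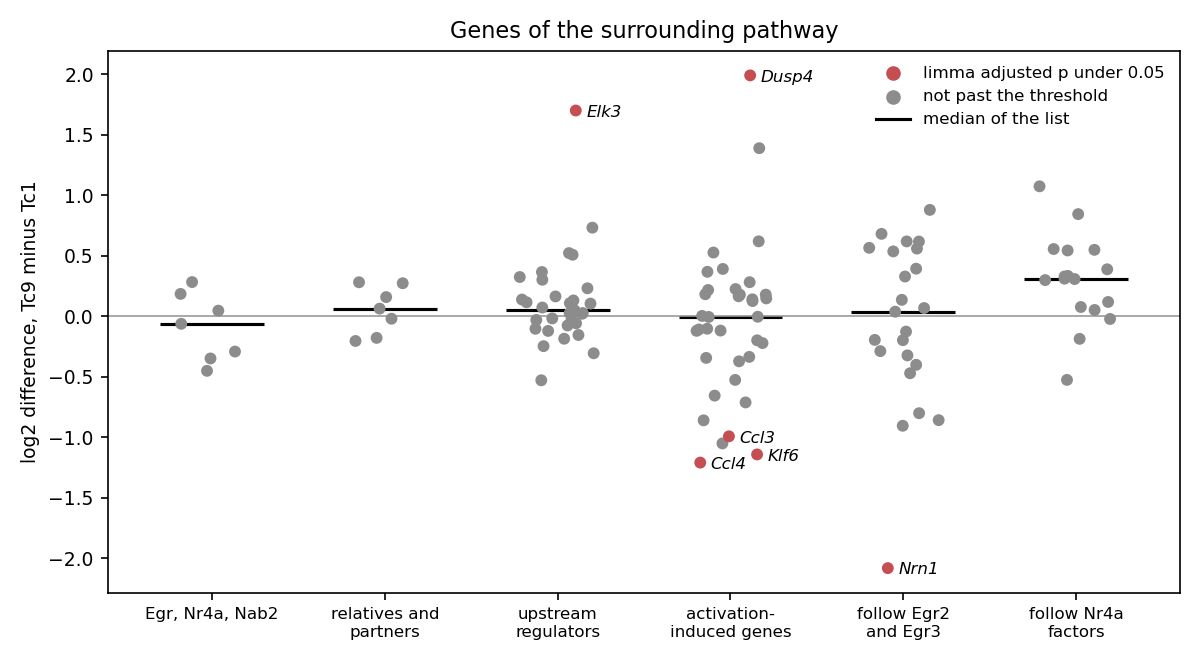
Log2 difference, Tc9 minus Tc1, of the 7 genes and of the 5 gene lists, 1 point a gene and a bar at the median of each list. Red points passed limma over all genes (adjusted p under 0.05) and are named. None of the 7 genes is red, while Elk3 and Dusp4 lie highest and Nrn1 lowest among the lists.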

How the data were processed

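Total RNA was taken with Trizol and given a biotin label by an Affymetrix protocol, per the labels. The authors deposited 1 intensity per probe set (28846) and array. The sources used here do not name their background correction, normalization or software, and the scale was taken as linear from the range of the values. Groups and numbers came from the sample titles. The 6640 control probe sets were left out, the other 22206 were quantile normalized, 16 was added and log2 taken. Of 19572 probe sets with a gene symbol, 19505 genes were kept, by the highest mean. Tc9 was compared with Tc1 with limma 3.58.1 in R 4.3.3 (lmFit, eBayes with an intensity trend, 2-sided, Benjamini-Hochberg over all genes, 2 residual and 5.08 prior degrees of freedom). The fit was tested on simulated data with independent noise of equal size for all genes and arrays. Arrays that deviate together were not simulated. Background was each array's 95th percentile of 5222 negative controls. Samples of 1 number deviated together from their group means (r = 0.729 across genes), and each number holds 1 array of each cell type. With 4 arrays precision is limited.

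The members and the 5 gene lists were chosen with earlier results of these data known. Named are the 7 genes, list members past the threshold, the 4 largest differences per list above background on at least 1 array of each group, and the 2 nearest profiles per gene. Of the listed genes, 8 are not analysed here. Alternatives were the values as deposited, median centring, pseudocounts of 1 and 64, no trend, a robust variance model, the block, filters at the 25th and 50th percentile, the mean over probe sets and leaving out each array.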

Additional observations from a re-analysis of the deposited data

How the results depend on the processing

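Of 91 refits of single genes without the replicate block, 85 kept the direction and 0 reached an adjusted p under 0.05. The lowest was 0.0685, for Nr4a3 without the Tc9 array numbered 2. Leaving out an array leaves 1 in its group, which is then assumed to vary like the other group, so these refits are a weak check. Egr2, Egr3, Nr4a3 and Nab2 kept their direction in all 13 of these settings each, with ranges of 0.07 to 0.49, -0.35 to -0.24, -0.65 to -0.25 and -0.56 to -0.14. Of these settings, no trend, the robust variance model and the filters cannot change a log2 difference. The mean over probe sets can change only that of Egr3, the gene with several probe sets. Directions in these settings were otherwise fixed in advance, and such refits are counted in the 85. The sign of Nr4a1 turned with median centring (-0.017), and leaving out single arrays gave it -0.097 to 0.19 (negative without the Tc1 array numbered 1 or the Tc9 array numbered 2). The same gave Nr4a2 -0.33 to 0.21 (positive without the Tc1 array numbered 2 or the Tc9 array numbered 1) and Egr1 -0.024 to 0.39 (negative without the Tc9 array numbered 2). The replicate block leaves each log2 difference as it was, with 4 of the 7 genes past the threshold (0.28 for Egr2, -0.29 for Egr3, -0.45 for Nr4a3 and -0.35 for Nab2). Without the intensity trend the block gave 1 of the 7 (Nr4a3, -0.45). On the values as deposited, a setting chosen after seeing the data, it gave 4 (0.25, -0.30, -0.46 and -0.38 for the same genes). The numbers are not stated to mark shared cultures, and the pairing is a hint from the data. Over all genes, 110 passed (75 higher and 35 lower in Tc9), and 16 did with the values as deposited (13 and 3), 56 without the trend, 2674 with the replicate block, 1426 with the block and no trend, 2813 with the block on deposited values, and 186 to 274 without single arrays. The arrays per group (n = 2) limit what can be called.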
